A study of Mus musculus with 48 samples.

Results

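The comparison set primordial germ cells (PGC) against somatic cells (SC) of early mouse ovaries in the vinclozolin (VZN) lineage. It comprised 16 of the 48 small RNA libraries of the study, 8 from PGC and 8 from SC, chosen by their labels alone. All 563 mature miRNAs of the deposited count table entered the account. The ovaries came from wild-type CD1 embryos at embryonic day 13.5. In the VZN lineage, pregnant founder females took 50 mg of VZN per kg of body weight per day with their drinking water over the first 13 days of pregnancy. VZN is a fungicide with anti-androgenic activity. F1 embryos were exposed in the uterus, and F2 and F3 embryos descended from them through exposed female ancestors. F2Sy was an F2 class in which both progenitors had been exposed. Each of the 4 classes had 2 PGC and 2 SC libraries. A Control lineage took the vehicle (DMSO, 0.3% v/v), which the VZN animals took as well, and the MEHP lineage took MEHP, a phthalate metabolite, at 35 mg per kg per day in the same vehicle. Each preparation used about 80 gonads without mesonephros. Anti-CD15 magnetic beads held the PGC back, and SC were the cells that passed. Stain counts in the labels put the PGC preparations at 93 to 96% germ cells and the SC preparations at over 90% somatic cells. Nothing in the labels tells whether both libraries of a group were made from separate pools of gonads. The p-values therefore cover only the scatter among these libraries, part or all of which may be technical.

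A mature miRNA guides the silencing complex to messenger RNAs mainly through its seed, bases 2 to 8, and miRNAs with the same seed share most of their predicted targets. Both strands of a hairpin, the 5p and the 3p arm, can be kept as mature miRNA. Fetal germ cells share with pluripotent stem cells a set of miRNAs from a few genomic clusters, among them the miR-290-295 cluster, whose 3p arms promote the cell cycle and self-renewal in embryonic stem cells. Differentiated cells carry more let-7, whose maturation the RNA-binding protein LIN28 blocks in pluripotent and early germ cells. Somatic cells of the fetal ovary are a mixture of pregranulosa, stromal, endothelial and blood cells.

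A selection of miRNAs from each side, and from 2 seeds, is shown with the seed in capitals, 5′ to 3′. Sequences are RefSeq mature sequences of build GRCm38.p6, matched by name, and 478 of the 563 miRNAs had one. From the germ cell side:
miR-291a-3p: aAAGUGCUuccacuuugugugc
miR-294-3p: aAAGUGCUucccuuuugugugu
miR-295-3p: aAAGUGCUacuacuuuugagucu
miR-302b-3p: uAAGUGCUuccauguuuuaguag
miR-293-3p: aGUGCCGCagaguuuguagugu
miR-182-5p: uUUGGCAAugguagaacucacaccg
miR-183-5p: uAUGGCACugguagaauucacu
miR-465c-3p: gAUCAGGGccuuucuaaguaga
miR-9-5p: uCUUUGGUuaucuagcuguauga
The first 4 share 1 seed although miR-302b-3p comes from another cluster than the other three. From the somatic side:
miR-202-5p: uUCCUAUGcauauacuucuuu
let-7a-5p: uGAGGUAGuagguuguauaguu
let-7c-5p: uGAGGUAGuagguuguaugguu
miR-10b-5p: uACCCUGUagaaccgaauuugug
miR-99a-5p: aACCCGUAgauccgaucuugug
miR-125b-5p: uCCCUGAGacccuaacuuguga
miR-199a-5p: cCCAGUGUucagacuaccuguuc
And from 2 seeds whose members went both ways between the fractions:
miR-92a-3p: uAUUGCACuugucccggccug
miR-363-3p: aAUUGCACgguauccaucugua
miR-25-3p: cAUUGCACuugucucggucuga
miR-16-5p: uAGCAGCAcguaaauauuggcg
miR-497a-5p: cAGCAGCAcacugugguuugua
miR-322-5p: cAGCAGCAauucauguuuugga

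PGC libraries held 2932000 to 7287000 listed miRNA counts and SC libraries 7460000 to 11760000, and levels are given as CPM, a count divided by the library total of listed counts and scaled as usual. The number of listed miRNAs was 386 ± 8.7 in PGC and 445 ± 10.6 in SC (SD over 8 libraries of each). Cells without a value made up 26.2% of the VZN columns, and they were kept as missing, since what left them empty is not known. The share of counts of a list or a seed sums listed values only, so a blank adds nothing to it. Across miRNAs the log2 counts of the 2 libraries of a group correlated with r of 0.859 to 0.987 in PGC and 0.968 to 0.986 in SC, where miRNAs are not independent replicates. Libraries of 2 groups stood apart. The 2 VZN PGC F2Sy libraries gave the lowest of these values, 0.859, and differed more than 4-fold in 28 of 284 miRNAs, against 1 to 8 in every other VZN group. In VZN SC F3 replicate 2 the miR-290-295 cluster took 2.15% of counts, against at most 1.28% in the other SC libraries, and miR-125b-5p stood at 36230 CPM, against 3173 to 9192 CPM. Some results that rest on these libraries are also given without them, and others are not.

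Of the 563 miRNAs, 284 were listed in all 16 libraries and could be tested, and they held 97.7 to 98.4% of the counts of PGC libraries and 96.6 to 98.2% of those of SC libraries. Another 13 were listed in all 8 PGC libraries and no SC library, and 55 in all 8 SC libraries and no PGC library. A further 28 were listed in all PGC and some SC libraries, 57 in all SC and some PGC libraries, 26 in some libraries of both fractions, 31 in some PGC libraries only, 42 in some SC libraries only and 27 in none of the 16. These 279 miRNAs have no test and are described by their listed values.

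PGC and SC libraries differed in most of the miRNAs that all of them listed. Of the 284 tested, 116 were higher in PGC (40.8%) and 117 were lower (41.2%), with the fold change averaged over the 4 classes (edgeR quasi-likelihood test, two-sided, Benjamini-Hochberg adjusted p under 0.05). The other 51 passed in neither direction. The median log2 fold change over all 284 was 0.11, and 196 changed by more than 1 on the log2 scale. In 82 miRNAs (28.9%) every PGC library lay above every SC library, and in 96 (33.8%) every PGC library lay below. Fewer cells of a type and less of a miRNA per cell cannot be told apart in these bulk preparations. Without the F2Sy class 119 miRNAs were higher and 129 lower of 300 tested, and 229 of the 233 calls were shared. Without VZN PGC F2Sy replicate 2, 247 of 291 were called, 119 of them lower, with 228 calls shared, and without VZN SC F3 replicate 2, 113 were higher and 117 lower.

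The 2 ends of the ranking had different shapes. At the upper end 33 miRNAs lay within a narrow band from 4.28 to 4.76 on the log2 scale, which is 19.4 to 27.1 times as much in PGC. Their mean PGC levels ran from 769 to 84300 CPM, so the band spans miRNAs of very unlike abundance. It held the 12 miRNAs of the miR-290-295 cluster that could be tested, the 14 of the X-linked germline cluster and the 3 of the miR-183 cluster, together with miR-9-5p, miR-20b-5p, miR-363-3p and miR-31-5p. Only 4 further miRNAs lay between 3 and 4.2, and 23 between 2 and 3. At the lower end the values thinned out gradually, with 56 miRNAs between -3 and -2 and 18 below -3, of which 1 was below -4. The 33 miRNAs of the upper band together took 33.9 to 46.8% of the counts of PGC libraries and 1.18 to 3.70% of those of SC libraries, with the highest SC share in F3 replicate 2. The 18 at the lower end took 1.20 to 4.41% of PGC counts and 24.1 to 29.9% of SC counts. The labels allow up to 10% of other cells in an SC preparation, and the part of carried-over germ cells in the SC levels was not tested.

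**Figure D1:**
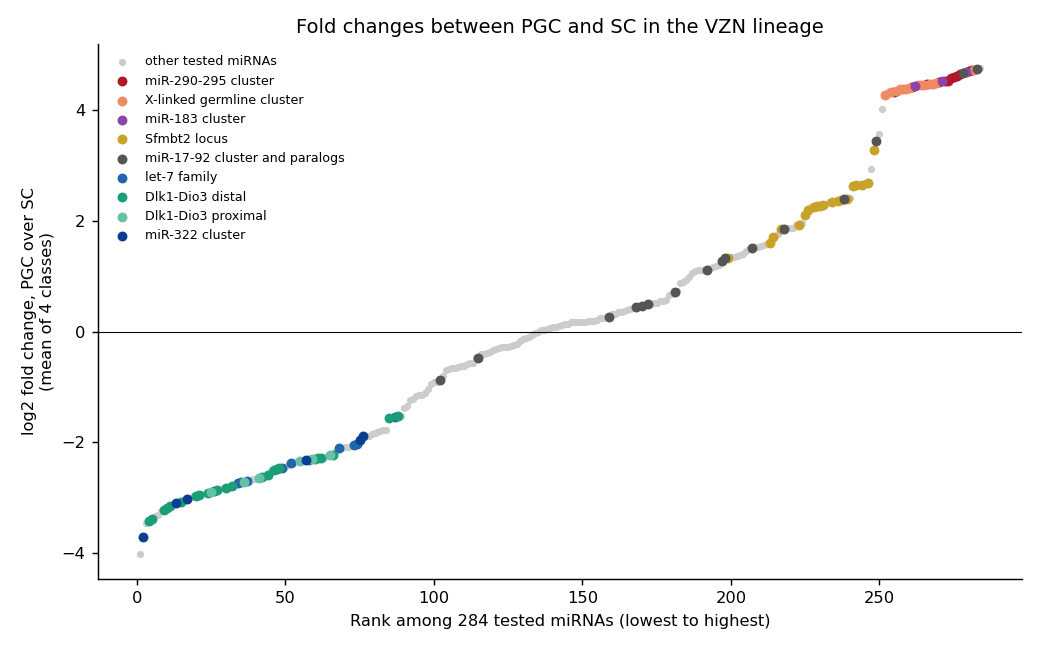
Log2 fold change of PGC over SC (vertical axis, mean of the 4 classes) for the 284 tested miRNAs in rank order (horizontal axis), coloured by list, 1 point per miRNA. The 33 highest form a flat step between 4.28 and 4.76, while the lowest fall off smoothly to -4.02.

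The miR-290-295 cluster was the main germ cell signature by abundance. Each of its 12 tested miRNAs was higher in PGC (median log2 fold change 4.56, range 4.34 to 4.73, against a median of 0.11 over all 284), and in all 12 the fractions did not overlap. Over all 284, 40.8% were called higher and in 28.9% every PGC library was above every SC library, and the counts of the lists that follow stand beside these shares. The cluster took 22.7 ± 2.30% of PGC counts and 1.04 ± 0.495% of SC counts (SD, n = 8 each). miR-292a-3p, its most abundant member, had 52690, 90390 and 97670 CPM as the lowest, median and highest of the PGC libraries, against 2516, 3453 and 6804 CPM in SC libraries. The fractions did not overlap, the lowest PGC value being F2Sy replicate 2 and the highest SC value F3 replicate 2. The log2 fold change was 4.61 ± 0.26 (SE; edgeR adjusted p = 7.05e-09), and it was 4.82 without that PGC library and 4.72 without that SC library. miR-293-3p, with a seed of its own in the cluster, had 41990, 54750 and 70800 CPM in PGC libraries, against 1466, 2101 and 3778 CPM in SC libraries, a log2 fold change of 4.62 ± 0.26 (edgeR adjusted p = 7.21e-09). The members with the stem cell seed AAGUGCU in this list were miR-294-3p (PGC 18570 ± 5058 CPM, SC 1086 ± 788.8 CPM), miR-295-3p (PGC 14200 ± 4830 CPM, SC 703.9 ± 334.2 CPM) and miR-291a-3p (PGC 3130 ± 821 CPM, SC 164.4 ± 112 CPM), each as mean ± SD over 8 libraries. All 3 were called, with log2 fold changes of 4.34, 4.42 and 4.51.

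From the cluster of miR-302 and miR-367, likewise known from embryonic stem cells, miR-302b-3p and miR-302d-3p have the same seed, but the cluster was far less abundant. Its 3 tested members were all higher in PGC (median 2.42), and the cluster took 0.206 ± 0.0566% of PGC counts and 0.0368 ± 0.00503% of SC counts (SD, n = 8 each). miR-302b-3p had 469.3, 865.8 and 1268 CPM as lowest, median and highest in PGC libraries, against 108, 141 and 161.2 CPM in SC libraries, without overlap. Its log2 fold change was 2.65 ± 0.21 (edgeR adjusted p = 1.61e-07).

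The X-linked germline cluster (miR-465, miR-463, miR-470, miR-741, miR-743, miR-871, miR-878, miR-881 and relatives) is a rapidly evolving group known from rodent testis and fetal germ cells. All 14 tested members of its 32 were higher in PGC (median 4.43, range 4.28 to 4.73), and none overlapped between the fractions. It took 10.8 ± 2.33% of PGC counts and 0.581 ± 0.179% of SC counts (SD, n = 8 each). miR-465c-3p led with 16770, 23530 and 30150 CPM in PGC libraries, against 636.1, 1155 and 1677 CPM in SC libraries. Every PGC library held at least 16770 CPM of it and no SC library more than 1677 CPM, for a log2 fold change of 4.47 ± 0.22 (edgeR adjusted p = 4.80e-09). Near-identical members such as miR-465a, miR-465b and miR-465c differ by few bases, and the counting could split reads among them, so single members are less certain than their sum. A further 5 members were listed in all PGC libraries and no SC library, and 1 in all SC libraries and no PGC library.

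The miR-183 cluster, with miR-96 and miR-182, is best known from sensory organs. Its 3 tested members were higher in PGC (median 4.53), and the whole cluster took 8.31 ± 2.14% of PGC counts and 0.374 ± 0.173% of SC counts (SD, n = 8 each). miR-183-5p had 13280, 41040 and 52590 CPM in PGC libraries, against 954.1, 1657 and 3681 CPM in SC libraries. miR-182-5p had 10700, 33020 and 41670 CPM in PGC libraries, against 460, 1216 and 3112 CPM in SC libraries. The fractions were separate for both, and the lowest PGC value of both came from F2Sy replicate 2. The log2 fold change of miR-182-5p was 4.69 ± 0.37 (edgeR adjusted p = 1.47e-07), and 4.95 without that library.

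The Sfmbt2 locus holds many repeated hairpins (miR-297, miR-466, miR-467 and miR-669) in an intron of an imprinted gene known from trophoblast. Every one of its 20 tested miRNAs, of 35 in the table, was higher in PGC, with a median of 2.29 and a range of 1.34 to 3.29, against 40.8% called higher over all 284. In 15 of the 20 the fractions did not overlap, against 28.9% over all 284. The locus took 2.42 ± 0.561% of PGC counts and 0.538 ± 0.0275% of SC counts (SD, n = 8 each). miR-467e-5p had 2495, 3194 and 4353 CPM in PGC libraries, against 514.9, 616.6 and 904 CPM in SC libraries, without overlap, for a log2 fold change of 2.35 ± 0.15 (edgeR adjusted p = 2.52e-08). These hairpins also differ by few bases, so the split between members is uncertain. miR-467a-5p overlapped, with 252.9, 5264 and 9261 CPM in PGC libraries against 854.2, 1441 and 1987 CPM in SC libraries, and the 252.9 CPM was F2Sy replicate 1.

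**Figure D2:**
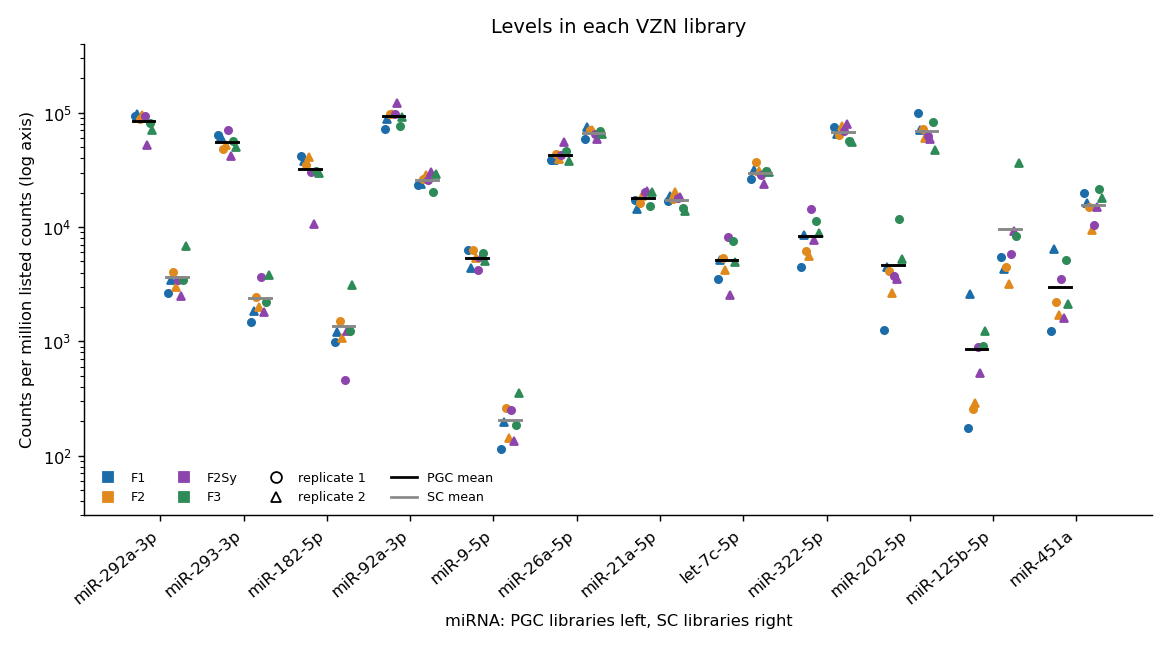
Level of 12 miRNAs in each of the 16 VZN libraries, in CPM on a log axis, with PGC left and SC right of each tick. Colours are classes, circles and triangles replicates 1 and 2, and bars group means. miR-292a-3p separates the fractions with a lowest PGC value of 52690 and a highest SC value of 6804, and miR-21a-5p overlaps.

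miR-17-92 and its paralogs (miR-106a-363 and miR-106b-25) are growth-promoting clusters whose members are among the most abundant in dividing cells. Of 16 tested members 13 were higher in PGC, 2 were lower and 1 passed in neither direction, and the median of 1.20 stood against 0.11 over all 284. miR-92a-3p was the most abundant miRNA of the PGC libraries, with 72330, 94660 and 121400 CPM there, against 20070, 26170 and 30200 CPM in SC libraries. No libraries overlapped, and the log2 fold change was 1.85 ± 0.14 (edgeR adjusted p = 6.73e-08). The members of the X-linked miR-106a-363 cluster changed most. miR-363-3p had 2199, 2764 and 3231 CPM in PGC libraries, against 51.52, 95.94 and 193.6 CPM in SC libraries, a log2 fold change of 4.75 ± 0.24 (edgeR adjusted p = 5.12e-09). miR-20b-5p followed with 4.68, and miR-18b-5p and miR-363-5p of the same cluster were listed in all 8 PGC libraries and no SC library. For miR-19b-3p the PGC mean was 5566 ± 434.4 CPM and the SC mean 4107 ± 480.7 CPM (SD over 8 libraries of each), and its log2 fold change was 0.47. The members that fell were miR-25-3p, by 0.86, and miR-106b-3p, by 0.48, both from the miR-106b-25 cluster in the replication gene Mcm7.

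Other families differed member by member. miR-16-5p, a repressor of cyclins and Bcl2, had 29210, 33080 and 38300 CPM in PGC libraries, against 12930, 14690 and 20470 CPM in SC libraries, without overlap (log2 fold change 1.17 ± 0.15, edgeR adjusted p = 1.04e-05). Of the 6 tested members of the miR-15 and miR-16 family 3 were called higher, a share near the 40.8% over all 284. miR-15a-5p and miR-15b-5p (log2 fold changes 0.14 and 0.11) did not pass in the reported edgeR fit. Both passed with blanks read as 0 (0.46 and 0.45, edgeR adjusted p = 0.0231 and 0.00117). Neither had a blank itself, and that reading also raised fold changes of miRNAs lower in PGC. miR-34b-3p went from -0.66 to -0.31 and miR-192-5p from -0.57 to -0.22, so the rise was not particular to this family. Without PGC F2Sy replicate 2 the log2 fold change of miR-15a-5p was 0.37. In the miR-30 family 8 of 10 were higher, with a PGC mean of 4961 ± 929.4 CPM and an SC mean of 1561 ± 582.8 CPM for miR-30a-5p (SD over 8 libraries of each). The p53-responsive miR-34 family was divided, with miR-34a-5p higher (1.39 ± 0.13) and miR-34b-3p, miR-34c-3p and miR-34c-5p lower (-0.66, -0.66 and -0.80). In the family of miR-148 and miR-152, which shares 1 seed and is known to repress Dnmt1, miR-148a-3p was higher in PGC (1.58 ± 0.17) and miR-152-3p lower (-2.40 ± 0.25). miR-29a-3p, a repressor of Dnmt3 methyltransferases and collagens, had 741.2, 967.5 and 1398 CPM in PGC libraries, against 54.25, 80.77 and 124.4 CPM in SC libraries, a log2 fold change of 3.57 ± 0.15 (edgeR adjusted p = 2.94e-09). In the miR-200 family, known for epithelial identity, miR-200c-3p was higher (4.02 ± 0.24). There miR-429-3p, miR-200a-3p and miR-200b-3p had log2 fold changes of 0.24, 0.18 and 0.08 and did not pass in the reported edgeR fit. With blanks read as 0, which shifted fold changes upward as given above, all of them passed (0.59, 0.50 and 0.40, edgeR adjusted p = 0.000849, 0.00315 and 0.0241). miR-429-3p passed in 7 of 24 alternative fits, among them DESeq2 (0.27, adjusted p = 0.0217) and the fits without either PGC F2Sy library, and miR-200a-3p passed without PGC F2Sy replicate 2 (0.35, edgeR adjusted p = 0.0163).

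Several abundant miRNAs gave no call. miR-21a-5p, one of the most widely expressed miRNAs, had 14260, 17920 and 20600 CPM in PGC libraries, against 13750, 17750 and 20080 CPM in SC libraries, and the fractions overlapped. Its log2 fold change was 0.08 ± 0.15 (edgeR adjusted p = 0.630). It passed with blanks read as 0 (0.41, edgeR adjusted p = 0.00239), a reading that shifted fold changes upward as given above. In its list with miR-23, miR-27 and miR-24, 1 of 9 was higher and 3 were lower in PGC, against 40.8% and 41.2% over all 284. miR-23b-3p and miR-27b-3p fell by 1.24 and 1.11. Of the Kit-repressing pair, miR-222-3p gave no call (PGC 1573 ± 384.6 CPM, SC 1649 ± 253.1 CPM, SD over 8 libraries of each). The other, miR-221-3p, had a log2 fold change of -0.58 (edgeR adjusted p = 0.0369), a call that was lost in 11 of 24 alternative fits. All 3 tested members of the family of miR-130 and miR-301 were lower in PGC (median -1.21), against 41.2% called lower over all 284. Among them miR-130b-5p (-2.06) is the other arm of its hairpin and has another seed. Of the pair miR-103 and miR-107, miR-107-3p was lower (-1.84) and miR-103-3p had -0.36 and did not pass in edgeR (adjusted p = 0.106). It passed in 6 of 24 alternative fits, among them DESeq2 (-0.36, adjusted p = 0.0325) and the fit without PGC F2Sy replicate 1 (-0.55, edgeR adjusted p = 0.00268).

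On the somatic side the gonad-enriched miR-202-5p had the lowest fold change of all. It had 1247, 3962 and 11790 CPM in PGC libraries, against 47260, 66390 and 98710 CPM in SC libraries. The fractions did not overlap, and the log2 fold change was -4.02 ± 0.32 (edgeR adjusted p = 1.51e-07). It was also the most abundant miRNA of SC libraries, with a PGC mean of 4612 ± 3142 CPM and an SC mean of 69330 ± 15880 CPM (SD over 8 libraries of each). The PGC values spread widely, with 1247 CPM in F1 replicate 1 and 11790 CPM in F3 replicate 1.

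The miR-322 cluster on the X chromosome, with miR-503 and miR-351, which restrains the cell cycle and accompanies muscle differentiation, came next. All 6 tested members were lower in PGC (median -2.66), against 41.2% called lower over all 284, a share that also stands beside the lists that follow. The cluster took 1.01 ± 0.380% of PGC counts and 8.12 ± 0.910% of SC counts (SD, n = 8 each). miR-322-5p had 4448, 8060 and 14440 CPM in PGC libraries, against 55340, 67560 and 80560 CPM in SC libraries, a log2 fold change of -3.01 ± 0.24 (edgeR adjusted p = 1.47e-07). miR-503-5p was the scarcer member, with 30.71, 53.34 and 168.3 CPM in PGC libraries against 910.5, 1048 and 1403 CPM in SC libraries. Its log2 fold change was -3.70 ± 0.38 (edgeR adjusted p = 1.46e-06).

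Every tested let-7 member was lower in PGC, 11 of 11 against 41.2% over all 284, with a median of -2.46 and a range of -2.88 to -1.54. The family took 1.34 ± 0.387% of PGC counts and 7.32 ± 1.06% of SC counts (SD, n = 8 each). let-7c-5p had 2552, 5058 and 8149 CPM in PGC libraries, against 23800, 30550 and 37040 CPM in SC libraries, and let-7a-5p had 1639, 2274 and 3222 CPM against 8702, 12920 and 16920 CPM. Neither overlapped, and the log2 fold changes were -2.47 ± 0.29 and -2.37 ± 0.23 (edgeR adjusted p = 4.69e-06 and 9.86e-07). As shown above, these 2 sequences differ late in the molecule and share the seed, so the counting could exchange reads between them.

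The imprinted Dlk1-Dio3 domain expresses its miRNAs from the maternal chromosome. Of its distal miRNAs 23 of 59 could be tested and all 23 were lower in PGC, against 41.2% over all 284 (median -2.79, range -3.42 to -1.53), and 17 more were listed in all SC libraries and no PGC library. The proximal group gave 6 of 6 lower (median -2.48) and 6 more listed in SC alone. miR-411-5p had 733, 1454 and 2137 CPM in PGC libraries, against 8074, 9625 and 11510 CPM in SC libraries, a log2 fold change of -2.83 ± 0.17 (edgeR adjusted p = 1.27e-08). miR-127-3p, which lies antisense to the retrotransposon-derived gene Rtl1, had 1651, 2090 and 4373 CPM in PGC libraries, against 8475, 11770 and 17840 CPM in SC libraries (-2.30 ± 0.20, edgeR adjusted p = 3.38e-07). The distal miRNAs took 0.750 ± 0.188% of PGC counts and a steady 4.89 ± 0.189% of SC counts (SD, n = 8 each).

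Further lists known from mesenchymal and patterned somatic tissue fell as whole lists of tested members. The miR-99, miR-100 and miR-125 families, whose first members travel in clusters with let-7, gave 6 of 6 lower (median -2.51) and 1.68 ± 0.554% of PGC counts against 10.3 ± 0.962% of SC counts (SD, n = 8 each). miR-99a-5p had 2239, 5312 and 9055 CPM in PGC libraries and 35680, 44520 and 49330 CPM in SC libraries. miR-125b-5p had 175.5, 712.4 and 2576 CPM in PGC libraries, against 3173, 5657 and 36230 CPM in SC libraries, and its log2 fold change of -3.30 ± 0.51 (edgeR adjusted p = 5.57e-05) was -2.98 without SC F3 replicate 2. The 5 tested Hox-cluster miRNAs were all lower (median -2.82; 41.2% over all 284), led by miR-10b-5p with 3447, 6090 and 10440 CPM in PGC libraries against 41630, 47170 and 55630 CPM in SC libraries. miR-199a-5p and miR-199b-3p, known as mesenchymal miRNAs, were lower (-3.33 and -3.24). The 3p arms of miR-199a and miR-199b have the same sequence, so the count listed for miR-199b-3p may hold both. miR-143-3p, a smooth muscle and stromal miRNA, fell by 3.01.

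**Figure D3:**
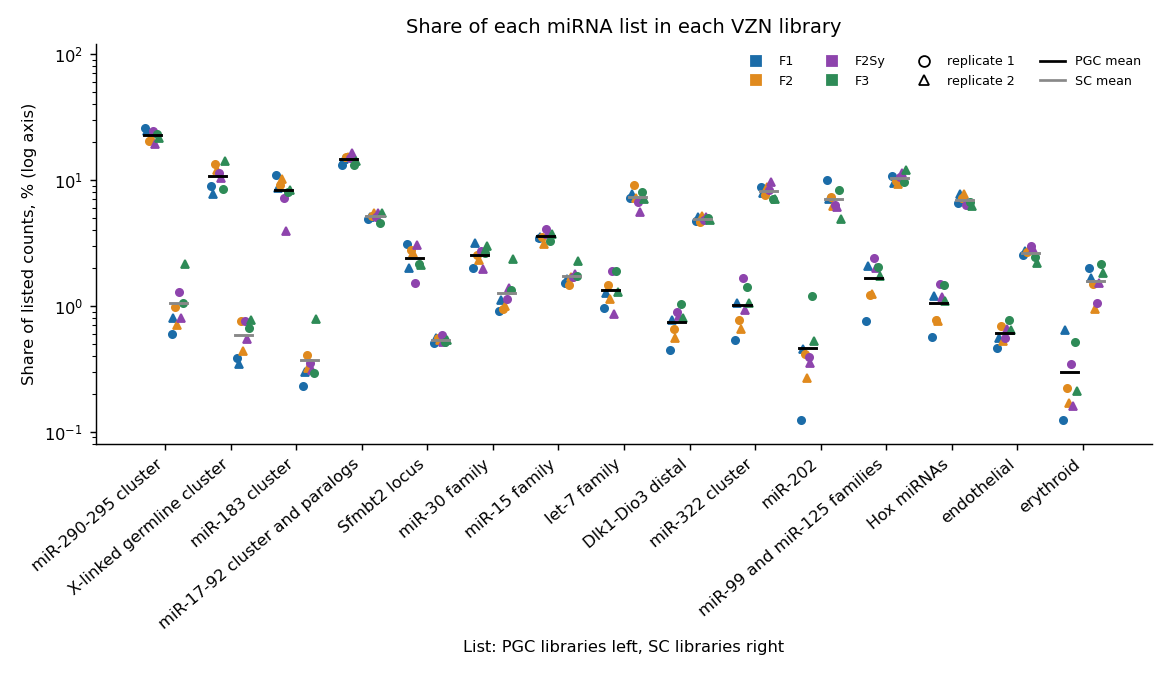
Share of listed counts taken by 15 lists in each VZN library (percent, log axis), PGC left and SC right of each tick, with colours for classes, shapes for replicates and bars for group means. The miR-290-295 cluster reached 19.1 to 25.9% in PGC and 0.597 to 2.15% in SC, and miR-202 0.125 to 1.19% in PGC and 4.87 to 9.96% in SC.

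Among miRNAs listed in 1 fraction alone, miR-18b-5p led in PGC at 349 ± 55.5 CPM, followed by miR-31-3p at 332.2 ± 31.2, miR-881-5p at 236.6 ± 64.3, miR-9-3p at 227.4 ± 69.7 and miR-471-5p at 196 ± 60.8 CPM (SD, n = 8). For comparison, the smallest listed value of an SC library was 12.7 to 15.6 CPM. In SC the highest were miR-1251-5p at 252.4 ± 67.6 CPM, miR-130b-3p at 213.4 ± 97.7, miR-379-3p at 192.8 ± 33.5, miR-666-3p at 183.7 ± 72.3 and miR-145a-5p at 167.6 ± 93.5 CPM (SD, n = 8), and the smallest listed value of a PGC library was 19.2 to 37.9 CPM. Since the rule behind the blanks is not known, no fold change is given for these.

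Marker lists of other cells went different ways between the fractions. The erythroid miR-451a had 1240, 2163 and 6368 CPM in PGC libraries, against 9418, 15660 and 21400 CPM in SC libraries, and was the only 1 of 4 erythroid markers listed throughout (log2 fold change -2.37 ± 0.37, edgeR adjusted p = 7.24e-05). The erythroid list took 0.124 to 0.641% of PGC counts and 0.948 to 2.16% of SC counts. The endothelial miR-126a-3p had 4535, 5846 and 7533 CPM in PGC libraries, against 21080, 26110 and 29090 CPM in SC libraries (-2.09 ± 0.13, edgeR adjusted p = 2.30e-08), and its list took 0.466 to 0.775% and 2.18 to 2.99% of counts. The leukocyte list went the other way, with 0.0581% of PGC counts (0.0339 to 0.0725%) and 0.0181% of SC counts (0.0121 to 0.0323%), and the fractions did not overlap. Of its 5 members only miR-150-5p could be tested, and it had a log2 fold change of 0.14 and no call in edgeR. miR-155-5p averaged 359.2 CPM in the 8 PGC libraries and 26.02 CPM in the 5 SC libraries that list it. Of the kidney and gut epithelium markers miR-192-5p (-0.57) and miR-194-5p (-1.14) were lower and miR-204-5p (0.52) higher, and the list overlapped with 0.0328 to 0.105% of PGC and 0.0603 to 0.0734% of SC counts. The hypoxia marker miR-210 took 0.000271% of PGC and 0.011% of SC counts on average and could not be tested. Most PGC libraries left it blank, and with blanks at the smallest listed count its PGC mean was 0.00504%. Liver and muscle markers were blank or at most 0.0223% of counts in every library. On average muscle markers took 0.0138% of PGC and 0.00309% of SC counts, and the libraries overlapped. The part of these cells in the levels of other miRNAs was not tested. Of 4 tested neural-type miRNAs 2 were higher and 1 was lower in PGC (median 0.62), namely miR-9-5p, miR-128-3p (1.07) and miR-132-5p (-0.91), and miR-138-5p had 0.18 and no call. miR-9-5p had 4198, 5435 and 6255 CPM in PGC libraries, against 115.2, 190.7 and 353.3 CPM in SC libraries. Its log2 fold change was the highest of all, 4.76 ± 0.24 (edgeR adjusted p = 5.12e-09), while miR-124-3p, the defining neuronal miRNA, was blank in 3 SC libraries and 1 PGC library and reached 24.04 to 753.7 CPM where PGC libraries listed it.

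The miRNAs were also grouped by seed, and seeds with a very small mean share of counts in both fractions were not counted. Of the 26 counted seeds with at least 2 tested members, 6 had all members higher in PGC and 8 had all members lower. Called members in both directions were held by 3 seeds. Over all 284 miRNAs 40.8% were called higher and 41.2% lower. The AAGUGCU seed (miR-291a-3p, miR-294-3p, miR-295-3p, miR-302b-3p and miR-302d-3p) took 3.74 ± 0.982% of PGC counts and 0.221 ± 0.122% of SC counts (SD, n = 8 each). The let-7 seed GAGGUAG, with 9 tested members all lower, took 1.32 ± 0.388% and 7.21 ± 1.06%. In the AUUGCAC seed miR-92a-3p, miR-363-3p, miR-92b-3p and miR-32-5p were higher and miR-25-3p lower, and the seed as a whole took 10 ± 1.54% of PGC counts and 2.90 ± 0.340% of SC counts. In the AGCAGCA seed miR-16-5p, miR-497a-5p and miR-195a-5p were higher and miR-322-5p lower. There the sum went with miR-322-5p, at 4.39 ± 0.555% of PGC counts and 8.49 ± 0.836% of SC counts, so the miR-15 and miR-16 list without miR-322 (3.56% and 1.72%) and the full seed pointed opposite ways. These shares cover the miRNAs with a matched sequence, which held 83.9 to 86.9% of PGC and 94.0 to 95.2% of SC counts, and miR-292a-3p is among those without one.

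The ratio of the 2 arms of a hairpin does not depend on library scaling. Of 42 hairpins with both arms listed in all 16 libraries, 4 had a higher 5p over 3p ratio in PGC (9.52%) and 2 a lower one (4.76%; limma, Benjamini-Hochberg adjusted p under 0.05). The main arm was the same in both fractions in all but 1 hairpin, miR-466p, where the arms were close. miR-25 changed most. Its log2 ratio of 5p over 3p was -3.04 ± 0.38 in PGC and -5.28 ± 0.726 in SC (SD, n = 8 each), a difference of 2.24 ± 0.27 (SE; limma adjusted p = 5.53e-05), and PGC libraries (-3.53 to -2.47) did not overlap SC libraries (-6.32 to -4.25). It was the only hairpin with arms called in opposite directions, miR-25-5p rising by 1.33 and miR-25-3p falling by 0.86. miR-574 (1.23) and miR-29c (1.07) also shifted toward the 5p arm, and miR-154 (-1.42) and miR-296 (-1.33) toward the 3p arm. Of the 42 hairpins only miR-25 and miR-154 had PGC libraries that did not overlap SC libraries. miR-29c-5p was scarce, with means of 49.77 CPM in PGC and 21.89 CPM in SC. The highest PGC ratio of miR-29c, 0.429, was that of F2Sy replicate 2. The shift of miR-20a (0.69, limma adjusted p = 0.0472) was lost in 15 of 20 alternative fits. In the germ cell clusters the arms moved together, with differences of 0.18 ± 0.34 for miR-292a, -0.05 ± 0.20 for miR-293 and -0.04 ± 0.20 for miR-465c, none of which passed.

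**Figure D4:**
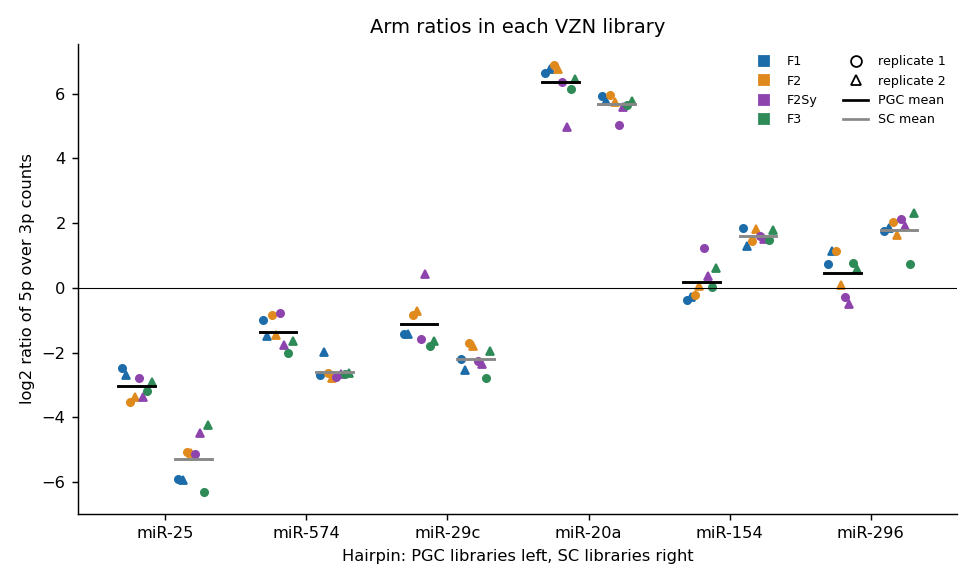
Log2 ratio of 5p over 3p counts (vertical axis, prior count of 2) of the 6 hairpins with a called difference, in each VZN library, PGC left and SC right of each tick, with colours for classes, shapes for replicates and bars for group means. The PGC libraries of miR-25 lie between -3.53 and -2.47 and its SC libraries between -6.32 and -4.25.

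Within the classes the same comparison gave 103 miRNAs higher (36.3%) and 105 lower (37%) in F1, 93 (32.7%) and 107 (37.7%) in F2, 93 (32.7%) and 96 (33.8%) in F2Sy, and 91 (32%) and 97 (34.2%) in F3, all of 284 (edgeR adjusted p under 0.05), which is 73.2% called in F1, 70.4% in F2, 66.5% in F2Sy and 66.2% in F3. A set of 81 was higher in PGC in all 4 classes and 89 were lower in all 4, while 58 were called in none. The sign was the same in all 4 classes for 240 of 284 miRNAs and for 227 of the 233 called on average. The spread of a miRNA over the 4 classes, highest minus lowest log2 fold change, had a median of 0.761 and a 90th percentile of 1.59. Calls in opposite directions occurred for 2 miRNAs, miR-296-5p (1.97 in F1 and -1.61 in F2Sy) and miR-500-3p (1.15 and -0.83). Without PGC F2Sy replicate 1 neither was called in F2Sy, with -0.83 for miR-296-5p (edgeR adjusted p = 0.140) and -0.49 for miR-500-3p (0.249). Without replicate 2 both were called there, with -3.44 and -1.26. Opposite calls went to 4 other miRNAs without replicate 1 (miR-146b-5p, miR-29c-3p, miR-3068-5p and miR-423-5p), and to these 2 and miR-467a-5p without replicate 2, names that were taken with their values known.

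A joint test of whether the fold change depended on the class called 0 of 284 miRNAs (0%; edgeR). Its smallest adjusted p was 0.328, and 20 miRNAs had an unadjusted p under 0.05. DESeq2 called 5, namely miR-196b-5p, miR-290a-5p, miR-291a-3p, miR-369-5p and miR-375-3p. The smallest p in edgeR was that of miR-375-3p, with log2 fold changes of -0.11 in F1, 0.97 in F2, 2.17 in F2Sy and 0.90 in F3. For miR-290a-5p they were 5.37, 5.13, 4.65 and 2.74 in the same order, and its SC level was 2473 CPM in F3 replicate 2, 851.5 CPM in F3 replicate 1 and 158.2 to 565.5 CPM elsewhere. miR-291a-3p gave 5.72, 4.90, 3.60 and 3.82. miR-204-5p ran from -0.66 in F2 to 1.71 in F2Sy, and its average call (0.52, edgeR adjusted p = 0.0394) was lost in 13 of 24 alternative fits, with 0.07 when the F2Sy class was left out.

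**Figure D5:**
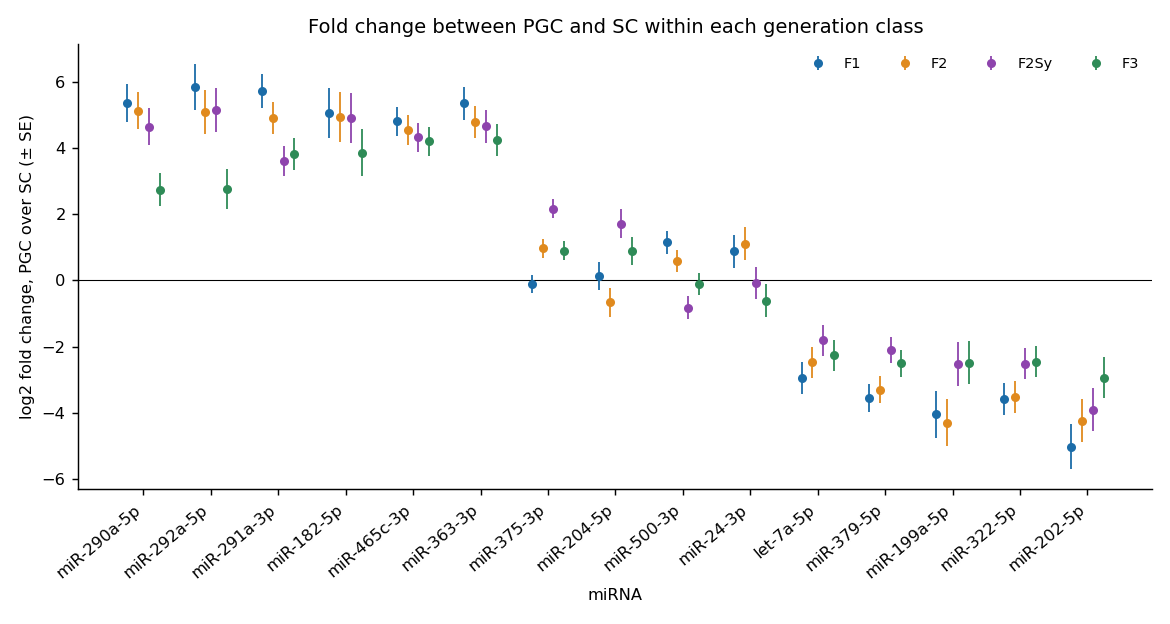
Log2 fold change of PGC over SC (vertical axis, ± SE from the edgeR fit) of 15 miRNAs within F1, F2, F2Sy and F3 (colours). miR-290a-5p and miR-292a-5p have their lowest value in F3 (2.74 and 2.77), and miR-375-3p ranges from -0.11 in F1 to 2.17 in F2Sy.

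The F2Sy results depended on which of the 2 PGC libraries was used. Without PGC F2Sy replicate 1 the joint class test called 3 miRNAs (miR-146b-5p, miR-224-5p and miR-672-5p), and without replicate 2 it called 9 others (miR-154-5p, miR-1983, miR-199a-5p, miR-27a-3p, miR-291b-5p, miR-296-3p, miR-296-5p, miR-467a-5p and miR-500-3p). These 12 names were chosen after their values were seen. miR-27a-3p had 67.11 CPM in replicate 1 and 7862 CPM in replicate 2, against 1617 to 6214 CPM in the other PGC libraries and 1230 to 3865 CPM in SC libraries. miR-291b-5p had 750.7 CPM and 11850 CPM, against 3735 to 6837 CPM in the other PGC libraries. In the other direction miR-672-5p had 867.1 CPM in replicate 1 and 81.17 CPM in replicate 2, against 518.1 to 738.8 CPM in the other PGC libraries. For these 3 miRNAs both F2Sy libraries lay outside the range of the other PGC libraries, on opposite sides. The lone library of F2Sy is assumed in these fits to vary like the other groups.

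Set beside the other lineages, the difference between germ and somatic cells was close to that of the Control and MEHP animals. In 1 fit of all 48 libraries and the 251 miRNAs listed in each, PGC against SC gave 97 higher (38.6%) and 107 lower (42.6%) in VZN, 105 (41.8%) and 106 (42.2%) in Control, and 112 (44.6%) and 107 (42.6%) in MEHP. In all, 81.3% were called in VZN, 84.1% in Control and 87.3% in MEHP. The difference of the log2 fold changes, VZN minus Control, was called for 0 of 251 miRNAs (0%; edgeR), with 0.961 as the smallest adjusted p and 3 miRNAs at an unadjusted p under 0.05. VZN minus MEHP was called for 0 as well (0%), with 0.900 and 8. By DESeq2, 0 were called in either. The central 80% of these differences lay between -0.30 and 0.34 for VZN minus Control and between -0.34 and 0.30 for VZN minus MEHP, with a median standard error of 0.26. The lowest p for VZN minus Control was that of miR-134-5p (0.61 ± 0.28, edgeR adjusted p = 0.961), of the Dlk1-Dio3 domain. For VZN minus MEHP it was miR-409-3p of the same domain (0.47 ± 0.15, edgeR adjusted p = 0.900), followed by miR-183-5p (-0.82 ± 0.29). Leaving out VZN PGC F2Sy replicate 2 gave 4 calls in each, among them miR-467a-5p at -1.44 in both and miR-27a-3p at -1.73 against Control and -1.93 against MEHP. On both the 2 F2Sy libraries disagreed, as given above.

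Although no single miRNA passed, fold changes in VZN tended to be the smaller ones. Of 215 miRNAs called in VZN or Control, all with the same sign in both, 163 had a fold change nearer 0 in VZN (75.8%), and against MEHP 160 had (71.7%). The median sizes were 2.24 in VZN and 2.36 in Control for the first set, and 2.13 in VZN and 2.24 in MEHP for the second. miRNAs of a library move together, so these shares are a description and not a test. By class the share against Control was 44% in F1, 58.4% in F2, 80.1% in F2Sy and 72.4% in F3, and against MEHP it was 65%, 67.5%, 44.1% and 69.8%. Without the F2Sy class the shares were 65.1% against Control and 75.2% against MEHP. Without VZN PGC F2Sy replicate 1 they were 67% and 62.4%, and without replicate 2 they were 78.3% and 74%. Without VZN SC F3 replicate 2 they were 72.4% and 68.8%. Median log2 fold changes were 4.59 in VZN, 4.86 in Control and 4.85 in MEHP for the miR-290-295 cluster, and 4.44, 4.83 and 4.68 for the X-linked germline cluster. On the somatic side they were -2.66, -2.97 and -2.81 for the miR-322 cluster and -2.52, -2.80 and -2.89 for the miR-99, miR-100 and miR-125 families. Not every list went this way. In the same order the medians were -2.95, -2.87 and -2.67 for the miR-143 cluster, with 1 tested miRNA. They were 1.19, 1.03 and 1.09 for miR-17-92 and its paralogs, and -2.82, -2.86 and -2.75 for the Hox-cluster miRNAs. Beside this, the 18 miRNAs of the lower end took 2.71 ± 1.08% of PGC counts in VZN, 2.01 ± 0.610% in Control and 2.05 ± 0.953% in MEHP, and the 33 of the upper band took 1.98 ± 0.801%, 1.75 ± 0.667% and 1.88 ± 0.830% of SC counts (SD, n = 8 each). Their part in the smaller fold changes was not tested.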

How the data were processed

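Small RNAs under 100 bases were sequenced by the submitters from fetal ovary fractions, per the labels. The authors deposited whole-number read counts per mature miRNA, which the file headers describe as sums of the canonical sequence and all isomiRs, with blanks and no 0. Bowtie 1.3.1 and build mm39 are named in the submitters' processing notes, and how reads were assigned and counted is not stated there. Each fit used miRNAs listed in all its libraries, since the tests planned here took a table without blanks for granted: 284 in the 16 VZN libraries and 251 in all 48, and filterByExpr removed 0 of the 284. Counts were tested in edgeR 4.0.16 (R 4.3.3; TMM, robust quasi-likelihood, 8 VZN groups of 2, biological coefficient of variation 0.342). Arm ratios were tested in limma 3.58.1 on log2 of counts plus 2. DESeq2 1.42.0, other scalings, other readings of blanks, libraries left out and a replicate block were alternatives. Scripts were tested on simulated data. The chi-square of counts between the 2 libraries of a group was at least 296.5 per degree of freedom in each of the 24 groups, so none of these pairs was 1 library deposited again, and intervals of counting error are not given because amplified reads carry no molecular identifier. The members and lists were chosen with earlier results of these data known. Names follow a rule: the 10 calls per direction with the largest fold change, at least 10 CPM and 1 sign in 4 classes, the 5 most abundant per fraction, up to 4 members per list, the 5 smallest p for the class and lineage tests, arm calls, and the 5 most abundant of miRNAs listed in 1 fraction. Members of a seed, a cluster or a count of 5 or fewer outside it were chosen with their values known. The build of the reference differs from that of the files, so no coordinates are given. piRNAs were not analysed here.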

Additional observations from a re-analysis of the deposited data

Results flagged for a closer look

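Single libraries far from the others were searched for among the 8 PGC and among the 8 SC libraries. This was done for each list and for each miRNA named for another reason than list membership. Dixon's test was used (the gap to the nearest library over the whole range, on the log2 scale). Groups with a blank or with a share of 0 were left out. miRNAs named only as list members, miR-467a-5p among them, were not searched. Of 150 groups searched 16 had such a library, and chance gives about 1 in 20. Most came from 2 libraries, and values of 1 library are not independent. In VZN PGC F2Sy replicate 2, miR-291a-5p was highest (8101 CPM), and miR-182-5p (10700 CPM), miR-183-5p (13280 CPM), miR-20b-5p (3524 CPM), the miR-183 cluster (3.93% of counts) and the leukocyte list (0.0339%) were lowest. In VZN SC F3 replicate 2, miR-292a-3p (6804 CPM), miR-329-3p (4969 CPM), miR-125b-5p (36230 CPM), the miR-183 cluster (0.784%), the miR-148 family (0.163%), the miR-15 family (2.25%) and the miR-30 family (2.37%) were highest, and miR-379-3p (118.3 CPM) was lowest. miR-500-3p was lowest in PGC F2Sy replicate 1 (44.47 CPM), and miR-204-5p was highest in SC F1 replicate 2 (147.3 CPM).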

How the results depend on the processing

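Counts of average and class calls stayed within 1.5 times the reported ones under RLE factors, listed totals alone, DESeq2 and all 48 libraries in 1 fit. Reading blanks as values adds miRNAs to the test. Reading them as 0 also moved average fold changes upward for miRNAs without blanks, as from -0.06 to 0.28 for miR-222-3p. The cause of this shift was not tested. With blanks as 0, calls were 189 higher and 211 lower on average, 162 and 172 in F1, 178 lower in F2, 150 lower in F2Sy and 160 lower in F3, and the joint class test called 7. With blanks at the smallest listed count they were 252 and 204 on average, 2.2e+02 and 181 in F1, 220 and 177 in F2, 217 and 169 in F2Sy and 204 and 171 in F3, arm ratios gave 31 and 27, and mean shares were 0.00555% for muscle in SC and 0.0025% for liver and 0.00504% for hypoxia in PGC. DESeq2 called 5 in the joint class test, and the cause was not tested. Using only the 4 libraries of F2Sy gave 63 lower, with fewer samples. Leaving out 1 library at a time gave 114 to 127 lower on average, 85 to 113 and 98 to 113 in F1, 81 to 108 and 95 to 117 in F2, 88 to 106 and 83 to 112 in F2Sy, 80 to 112 and 86 to 110 in F3, 0 to 9 joint class calls, 0 to 4 calls in each lineage difference, and 3 to 6 higher and 2 to 9 lower arm ratios, the 9 without PGC F2Sy replicate 1 and 6 without replicate 2.

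Over all shared miRNAs, 0 to 15 average fold changes turned sign in each of the 24 alternative fits, and 0 of them had a call as reported. Among miRNAs under the naming rule these were miR-30e-5p (0.149 with blanks as 0, 0.08283 without PGC F2Sy replicate 2, -0.4581 without replicate 1), miR-222-3p (0.2821 and 0.02935 under the 2 readings of blanks, -0.1664 to 0.05063 over left-out libraries), miR-200b-3p (-0.04726 to 0.2565 over left-out libraries, -0.0397 without F2Sy), miR-29c-3p (-0.1059 to 0.4382) and miR-15a-5p (-0.08395 to 0.3695) over left-out libraries, the ends without PGC F2Sy replicate 1 and 2, and miR-21a-5p (-0.05284) and miR-150-5p (-0.2073) without F2Sy. Leaving out F2Sy was chosen after seeing the data, as were the class-wise and left-out values of the share of smaller fold changes. Same-numbered PGC and SC libraries deviated with r of -0.00782, 0.238, -0.431 and 0.436 in F1, F2, F2Sy and F3, so the numbers were not read as pairs. With a replicate block the average calls were 111 and 117, and the joint test called 0. Library totals of listed counts, 2932000 in the smallest, limit what low miRNAs can show.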
